A study of Mus musculus with 3 samples.

Results

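The complement genes measured in mouse muscle and described here are C1qa, C1qb, C1qc, C1s, C2, C3, C4b, Cfb and C3ar1. They were taken by name as all non-control probes carrying one of these symbols on a whole-genome array, which gave 13 probes and 22 spots per array for the 9 genes, out of 41169 probes for 27665 genes or other names. The muscle came from male mice, 6 weeks old per the labels, after 14 days, and the labels do not say which muscle. In the Chlorella swimming group the mice swam and ate food with 0.5% powder of Chlorella, a unicellular green alga, in the swimming group they swam on normal food, and in the nonswimming group they ate normal food and did not swim. Each group is 1 single-colour Agilent array hybridised with RNA pooled from 10 mice.

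Without replicate arrays no test between groups could be made, and none of the differences has a replicate check. The number of arrays limits the precision. On the 3 arrays, 23448 to 24857 probes were well above background and no probe was saturated. All 10 skeletal muscle markers examined, among them the muscle actin Acta1 and the creatine kinase Ckm, were well above background on every array. The pooled RNA also carried markers of other cells, whose values stand beside the results they move with. In such bulk RNA, fewer cells of a type and less RNA per cell cannot be told apart.

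Complement is a cascade of plasma and membrane proteins that marks particles and dying cells for removal. C1q, built of A, B and C chains, recognises the target, and its partner proteases C1r and C1s then cut C4 and C2 to form a convertase that cleaves C3. Factor B, encoded by Cfb, forms the convertase of the alternative pathway, and the fragment C3a signals through the receptor encoded by C3ar1. The liver supplies most plasma C3, whereas C1q is made mainly by macrophages and dendritic cells, and fat tissue also makes C3 and factor D.

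The upstream sequences of C1qb and C1qc, whose ratios were alike, and of C3, which had another pattern, are shown first. They are the 250 bases before the gene start in RefSeq, build GRCm38.p6, minus strand, at chr4:136886201-136886450 for C1qb, chr4:136892915-136893164 for C1qc and chr17:57228137-57228386 for C3. Capitals mark matches, on either strand, to letters used for PU.1 (GAGGAA), a myeloid transcription factor, NF-kB (GGG, any 5 bases, CC), an inflammatory one, and C/EBP (TT, any 2 bases, GCAA).
C1qb: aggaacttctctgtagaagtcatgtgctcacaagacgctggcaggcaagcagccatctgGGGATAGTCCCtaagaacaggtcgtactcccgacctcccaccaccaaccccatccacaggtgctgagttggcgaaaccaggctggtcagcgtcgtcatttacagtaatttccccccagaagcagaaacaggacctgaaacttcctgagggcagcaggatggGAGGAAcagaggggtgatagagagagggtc
C1qc: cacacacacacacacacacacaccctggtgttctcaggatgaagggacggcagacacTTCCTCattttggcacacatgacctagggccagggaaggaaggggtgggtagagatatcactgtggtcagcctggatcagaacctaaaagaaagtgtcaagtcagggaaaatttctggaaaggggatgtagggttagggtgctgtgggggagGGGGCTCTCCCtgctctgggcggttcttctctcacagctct
C3: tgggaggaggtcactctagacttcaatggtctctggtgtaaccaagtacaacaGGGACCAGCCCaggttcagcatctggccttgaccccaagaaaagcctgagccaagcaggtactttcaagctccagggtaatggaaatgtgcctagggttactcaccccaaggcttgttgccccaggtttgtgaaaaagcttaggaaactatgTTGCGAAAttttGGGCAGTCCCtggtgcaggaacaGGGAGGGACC
The PU.1 letters occurred 1 time before C1qb and 1 time before C1qc and were not in the C3 window, and 23.3% of all 32851 promoters of this length held them. C3 had the C/EBP letters 1 time, 45 bases before the start, and 9.56% of all promoters held them. The NF-kB letters matched 2 overlapping times in C1qb and in C1qc and 4 times in C3, 2 of these overlapping, and stood in 45.8% of promoters. No base lay in matches of 2 different motifs. IRF letters (GAAA, any 2 bases, GAAA), found in 2.98% of promoters, and TATAAA, found in 12.4%, were in none of these 3 windows. Sequences were at hand for 5 of the 9 members, those not printed being C1s, listed as C1s1 by RefSeq, and C3ar1. Neither of these held the PU.1 letters, although C1s, by its brighter probe, was the member closest in pattern to the C1q chains. C1s had the C/EBP letters 1 time, before the first of its 2 starts, as C3 did before its start. A match describes letters only and is not a binding site.

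Values below are relative signals, the background-subtracted processed signal of a gene's brightest probe divided by the 75th percentile of its array, so that a value of 1 equals that percentile. A log2 ratio is the difference of the log2 relative signals of 2 arrays. Its ± is the scanner software's spot error, 0.20 for all members but C3ar1, which covers neither mice nor labelling. A ratio beyond 1.96 times this error, which is 0.40 for most members, is called beyond the scanner error. Signals of different probes have no common scale, so levels are compared between arrays and never between genes.

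**Figure D1:**
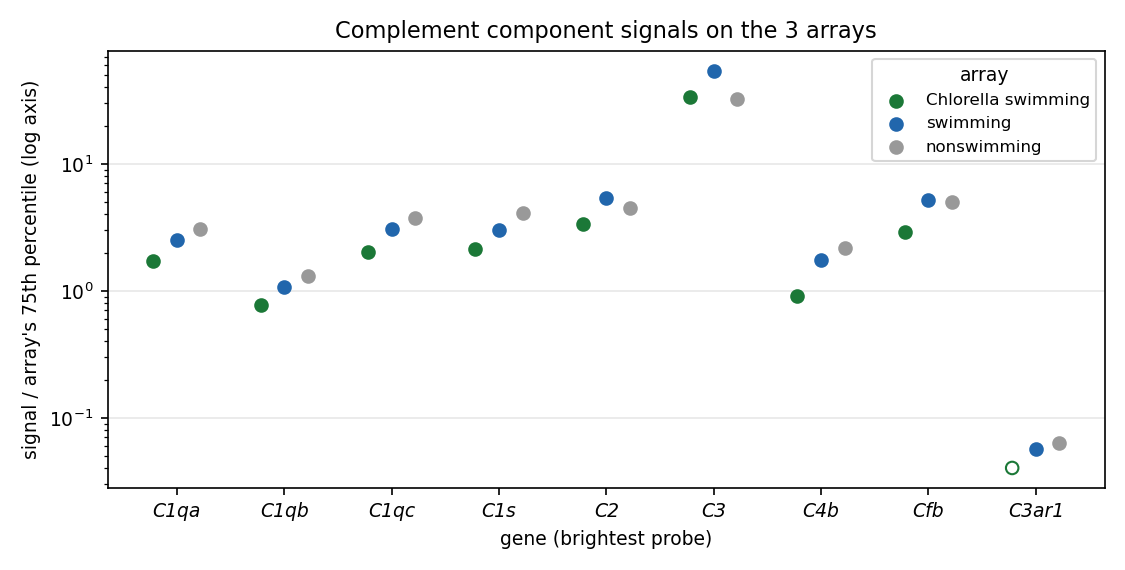
Relative signal (log axis) of the brightest probe of each complement gene on the Chlorella swimming, swimming and nonswimming arrays, 1 point per array, with an open point where the probe was not well above background. For the 3 C1q chains, C1s and C4b the order was Chlorella swimming below swimming below nonswimming, whereas C3 stood highest on the swimming array, at 54.2.

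Every member measured on both swimming arrays was lower with Chlorella than on normal food, and C4b and Cfb were furthest down. Ratios ran from -0.96 to -0.48 in 8 members, with a median of -0.65, while the median of all 15508 genes measured on these arrays was 0.08. None of the 8 members was 2-fold lower, where 4.86% of all genes were. At least 1.5-fold lower were 5 of 8 (C1qc, C2, C3, C4b and Cfb), where 9.17% of all genes were. All 8 lay beyond the scanner error in the lower direction, where 12.3% of all genes did. Each array centred on its median in place of the 75th percentile moved all genes by 0.13. Then 2 of 8 were 1.5-fold lower, and the share of all genes was not counted under that scaling. C1qa, C1qb and C1s, at -0.39, -0.34 and -0.37, were then within the scanner error, although still below 0. The median of the members was then -0.52 and that of all genes 0.21. The difference between these medians, -0.73, was the same under both scalings. Before any scaling the 8 log2 ratios lay between -1.27 and -0.79, on an array whose 75th percentile was 237.8 against 295.0 intensity units on the swimming array.

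Between swimming and nonswimming mice on normal food, the members went in different directions. C3 was higher on the swimming array and C1s was lower, both beyond the scanner error, and the other 7 were within it. The median of the 9 ratios was -0.28, against -0.04 over 15661 genes. None was 2-fold different, where 6.21% of genes were, and C3 alone was 1.5-fold higher, where 9.34% were, and 0 were 1.5-fold lower, where 4.4% were. The 2 of 9 members beyond the scanner error compare with 21% of all genes, so the share was near that of the whole array.

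Chlorella swimming mice differed from nonswimming mice in both food and swimming. Of the 8 measured, 7 were beyond the scanner error in the lower direction, where 10.1% of genes were, and the exception was C3. C4b alone was 2-fold lower, where 1.49% of genes were, and 6 of 8 were at least 1.5-fold lower (C1qa, C1qb, C1qc, C1s, C4b and Cfb), where 5.76% were. The median of the 8 ratios was -0.80, against 0.04 over 15336 genes. These 3 comparisons share arrays, so their ratios are not independent: a gene's ratio in the last comparison is the sum of those in the others.

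**Figure D2:**
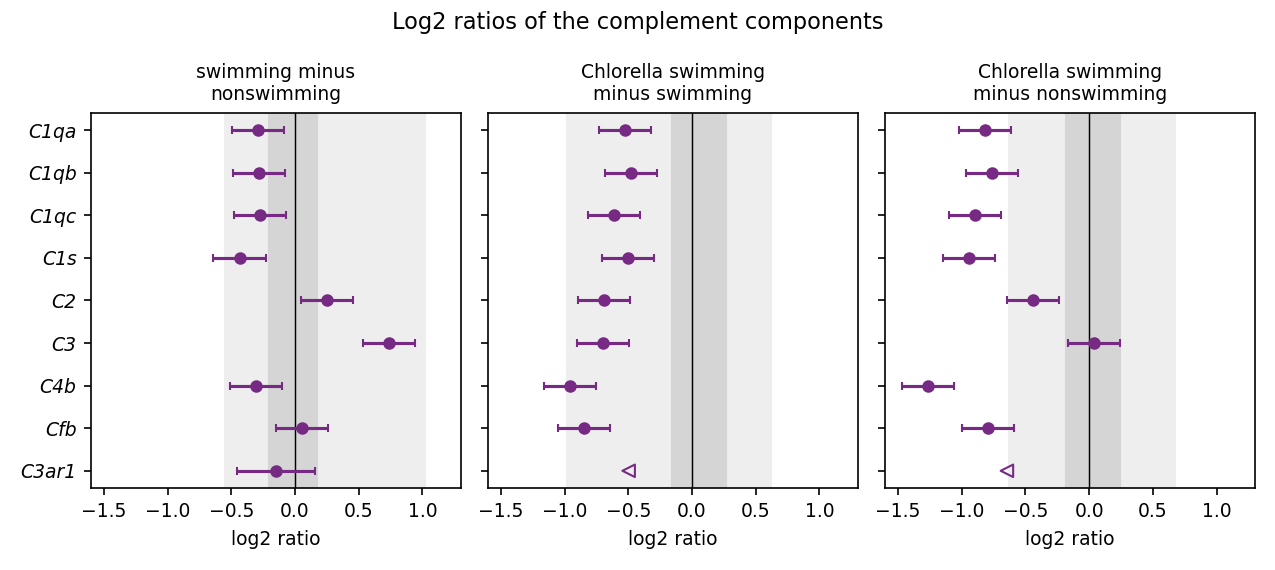
Log2 ratios of the 9 genes in the 3 comparisons, with the scanner error as bars. The light and dark grey bands hold the middle 90% and 50% of all genes measured, and open triangles mark C3ar1 where it was not well above background on the Chlorella array. In the middle panel all 8 measured members lie left of 0, between -0.96 and -0.48.

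Of the recognition unit, C1qa had relative signals of 1.73 on the Chlorella swimming array, against 2.49 for swimming and 3.05 for nonswimming. C1qb had 0.773 on the Chlorella swimming array, against 1.08 for swimming and 1.31 for nonswimming. C1qc had 2.02 on the Chlorella swimming array, against 3.09 for swimming and 3.75 for nonswimming. All 3 chains stood in the same order, lowest with Chlorella and highest without swimming. Their ratios for Chlorella against normal food in swimming were -0.53, -0.48 and -0.61 for the A, B and C chains, each ± 0.20. For swimming against nonswimming they were -0.29, -0.29 and -0.28. These neighbours in the order were within the scanner error, but beyond it with median centring (-0.44, -0.44 and -0.43). For Chlorella swimming against nonswimming the ratios were -0.82, -0.76 and -0.89, and at most 3.23% of all genes had a lower ratio than any of them.

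The 3 chains differed from each other by less than the scanner error in every comparison. The distance between their patterns, the Euclidean distance of log2 signals over 3 arrays after each gene's mean was removed, was 0.04 to 0.11. The genes lie side by side on chromosome 4 in the order C1qb, C1qc, C1qa, with no other coding gene between them in the RefSeq table of GRCm38.p6. The scanner files give coordinates without naming a build, and there the probes lie on chromosome 4 from 136274931 to 136274990 (C1qa), from 136259100 to 136259159 (C1qb) and from 136268288 to 136268347 (C1qc).

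The genes outside the members closest in pattern to the mean of the 3 chains were Azi2, 1700113A16Rik, Coro1c, Zdhhc6 and Tbce, at distances of 0.01 to 0.03. With only 3 arrays such likeness is common: 235 of 13312 genes compared, or 1.77%, lay within 0.2 of the C1q mean. C1s, at 0.11 to 0.14 from the chains with its brighter probe, was the closest other member. This ranking rests on that probe. The dimmer C1s probe had -0.72 for swimming against nonswimming, where the chains had -0.29 to -0.28.

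C1s encodes the serine protease that C1q carries and that cuts C4 and C2. Its brighter probe had relative signals of 2.14 on the Chlorella swimming array, against 3.04 for swimming and 4.11 for nonswimming. The dimmer probe had 0.576 on the Chlorella swimming array, against 0.868 for swimming and 1.43 for nonswimming. Both probes gave the same order as the C1q chains. The brighter probe had ratios of -0.50 for Chlorella against normal food in swimming, -0.44 for swimming against nonswimming and -0.94 for Chlorella swimming against nonswimming. The dimmer probe had -0.59, -0.72 and -1.32 in the same comparisons, and with it C1s would also be 2-fold lower in the last of these.

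C4b encodes complement C4, the substrate of C1s whose fragment binds to targets. Its relative signals were 0.907 on the Chlorella swimming array, against 1.76 for swimming and 2.18 for nonswimming. It had the lowest ratio of the 8 for Chlorella against normal food in swimming, -0.96 ± 0.20 or 1.94-fold lower, and 5.18% of all genes had a lower one. Against nonswimming the Chlorella swimming array was 2.41-fold lower, a ratio of -1.27, and only 0.626% of genes were below it. Swimming against nonswimming gave -0.31, within the scanner error, and -0.46 with median centring, beyond it. The files give this probe, on chromosome 17 from 32815561 to 32815620, the accessions of both C4b and the near-identical C4a, so the 2 transcripts cannot be told apart on it. The array's own C4a probe was not well above background on any array.

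C2 encodes the protease subunit of the classical convertase. Its brighter probe had 3.33 on the Chlorella swimming array, against 5.37 for swimming and 4.52 for nonswimming. Its dimmer probe had 1.04 on the Chlorella swimming array, against 1.54 for swimming and 1.40 for nonswimming. Unlike in the C1q chains, the swimming array was the highest with both probes. For Chlorella against normal food in swimming the probes gave -0.69 and -0.56, and for swimming against nonswimming 0.25 and 0.14, both of these within the scanner error.

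Cfb encodes factor B, the relative of C2 in the alternative pathway, and lies next to C2 on chromosome 17 with no coding gene between them. Its relative signals were 2.91 on the Chlorella swimming array, against 5.22 for swimming and 5.03 for nonswimming. The arrays on normal food differed by a ratio of 0.05, within the scanner error, and median centring turned that sign to -0.10. The Chlorella array was lower than both, at -0.85 against swimming and -0.79 against nonswimming. Its probe covers 357 bases of the genome, from 32952681 to 32953037, where most member probes cover 60, so it spans a splice junction. C4b lies in the same region, with 5 coding genes between it and Cfb.

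C3 encodes the central protein, cut by either convertase, and had the most measurements, since its brighter probe is spotted 10 times on each array. Over these 10 spots the relative signal ran from 31.1 to 36.6, with a median of 33.5, on the Chlorella swimming array. On the swimming array it ran from 49.8 to 56.2 with a median of 54.3, and on the nonswimming array from 28.9 to 34.4 with a median of 32.4. The spots of the swimming array overlapped with neither other array, and those of the Chlorella swimming and nonswimming arrays overlapped. Means were 33.4 ± 1.4 on the Chlorella swimming array, 54.2 ± 1.8 for swimming and 32.5 ± 1.6 for nonswimming (SD over 10 spots, which repeat 1 pool and are not replicates). The SD between spots, 0.05 to 0.07 on the log2 scale, was below the scanner error of 0.20.

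**Figure D3:**
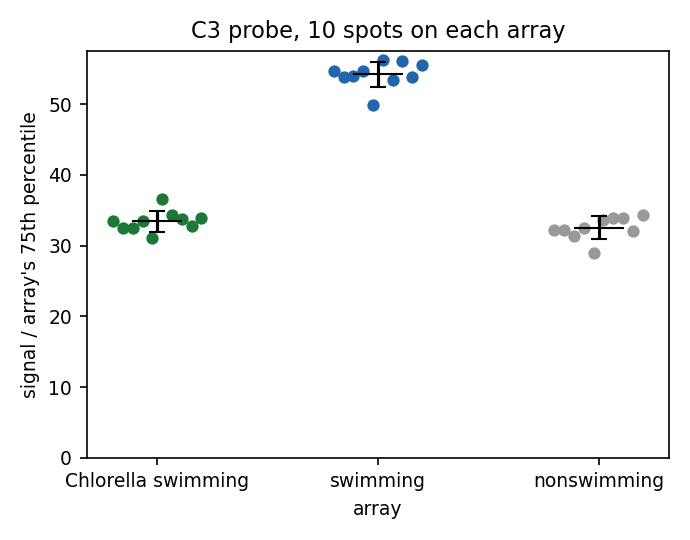
Relative signal of the C3 probe in its 10 spots on each array, with the mean and SD over spots as black lines. All swimming spots lie at or above 49.8, while the highest spot of the Chlorella swimming array is at 36.6 and that of the nonswimming array at 34.4.

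The C3 ratio was -0.70 for Chlorella against normal food in swimming, 0.74 for swimming against nonswimming and 0.04 for Chlorella swimming against nonswimming. The last value was within the scanner error and changed sign under 5 of 9 alternative settings, the lowest value being -0.10 with quantile normalization. The dim second probe gave -0.89, 0.82 and -0.07, with errors of 0.36, 0.33 and 0.41. Of all genes, 7.32% had a higher ratio than C3 for swimming against nonswimming. C3 was farthest in pattern from C4b, at 0.98, and closest among members to C2, at 0.39. Arrb2, Brpf3, Car13, Tspan32 and Zfpm1 were the genes outside the members closest to C3, at distances of up to 0.03, and 246 of 13312 genes, or 1.85%, lay within 0.2.

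C3ar1, the receptor for the C3a fragment, was near the detection limit. The signal of its brighter probe was 9.57 intensity units on the Chlorella swimming array, where it was not well above background, against 16.8 for swimming and 18.0 for nonswimming. With this dim signal taken as it stands, the Chlorella array was 1.41-fold lower than the swimming array and 1.56-fold lower than the nonswimming array. The log2 ratios, -0.50 ± 0.39 and -0.64 ± 0.39, were within the scanner error, so these folds are not lower bounds. Swimming against nonswimming gave -0.15 ± 0.31, within the scanner error. The second C3ar1 probe was not well above background on any array.

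The rest of the pathway was examined in a list of 47 further complement genes, and it did not move as one with the members. For Chlorella against normal food in swimming, 10 of 30 measured were at least 1.5-fold lower and 3 of these 2-fold lower, while 0 were 1.5-fold higher, with a median of -0.26. Of all genes, 9.17% were 1.5-fold lower, 4.86% were 2-fold lower and 5.87% were 1.5-fold higher. For swimming against nonswimming 7 of 37 were at least 1.5-fold higher and 3 lower by that size (median -0.01), where 9.34% and 4.4% of all genes were. For Chlorella swimming against nonswimming 10 of 30 were at least 1.5-fold lower and 0 higher, with a median of -0.35, where 5.76% of all genes were lower and 6.63% higher by that size.

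Among recognition proteins and their proteases, C1ra, the C1r partner of C1s, had a ratio of -0.28 for Chlorella against normal food in swimming. It had -0.32 for swimming against nonswimming and -0.60 for Chlorella swimming against nonswimming. The ficolin Fcna, a lectin that recognises sugars, had -1.57, 0.62 and -0.95 in these comparisons. Fcnb, a second ficolin made by myeloid cells, had a ratio of 3.82 for swimming against nonswimming and was not well above background with Chlorella. Its nonswimming signal of 8.87 intensity units was near the lowest one well above background on that array, 6.45, so the size of this ratio is uncertain. Masp1, a lectin pathway protease, had 0.31 for Chlorella against normal food, within the scanner error. It had -0.72 for swimming against nonswimming and -0.41 for Chlorella swimming against nonswimming.

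Cfd and Cfp are the other alternative pathway genes. Cfd, factor D or adipsin, the adipocyte protease that activates factor B, had relative signals of 131.3 on the Chlorella swimming array, against 257.6 for swimming and 126.2 for nonswimming. Its ratios of -0.97 for Chlorella against normal food and 1.03 for swimming against nonswimming had the signs of those of C3. Cfp, properdin, the stabiliser of the alternative convertase made by myeloid cells, had -0.89 and -0.11. Of the terminal components, 3 of 7 were measured on both swimming arrays and none was 1.5-fold different with Chlorella, with ratios from -0.26 to 0.19.

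Of 7 soluble regulators measured on both swimming arrays, 2 were at least 1.5-fold lower with Chlorella and 0 higher, with a median of -0.14. Where 9.17% of all genes were lower by that size, Cpn2, a carboxypeptidase N subunit, had -0.62. The 3 highest ratios were those of Serping1, the C1 inhibitor, at -0.05, clusterin (Clu) at 0.02 and vitronectin (Vtn) at 0.42. Of 9 membrane regulators 4 were measured, with ratios from -0.45 for Cd55, which speeds decay of convertases and was beyond the scanner error, to 0.15 for Cd59a, which blocks the membrane attack complex. Among receptors, Itgb2 and Itgam, the chains of complement receptor 3, had -2.25 and -1.79 for Chlorella against normal food, and Itgb2 had 1.02 for swimming against nonswimming. Cd93, an endothelial and myeloid surface protein first described as a C1q receptor, had 0.57 for Chlorella against normal food. The median of the 6 measured receptors, -0.83, was 0.03 with normexp background correction.

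**Figure D4:**
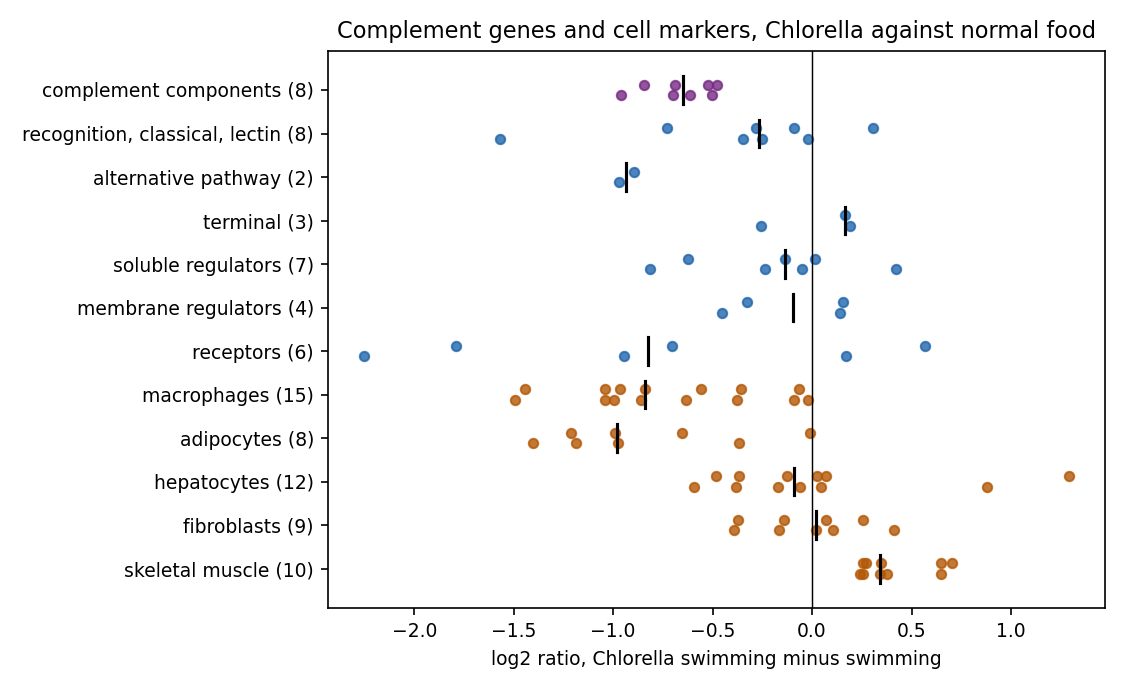
Log2 ratios of single genes for Chlorella swimming minus swimming, by list, with the number measured in brackets and the list median as a black line. Complement components (median -0.65), macrophage markers (-0.84) and adipocyte markers (-0.98) lie left of 0, and skeletal muscle markers (0.34) lie right of it. The skeletal muscle median depended on the scaling and was 0.03 with quantile normalization and 0.10 with cyclic loess. The macrophage median was -0.51 with normexp background correction.

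Markers of the cells that make complement differed between the arrays too, and their part in the ratios of the members was not tested. Of 15 macrophage markers measured on both swimming arrays, 9 were at least 1.5-fold lower with Chlorella, where 9.17% of all genes were, and 0 higher (median -0.84). With normexp background correction the macrophage median was -0.51 and that of the members -0.64. The summed relative signal of the macrophage markers was 49.3 on the Chlorella swimming array, against 124.1 for swimming and 88.3 for nonswimming. Most of it came from the lysozyme gene Lyz2, at 39.9, 108.7 and 73.7 on these arrays, so the sum mainly follows this 1 gene. Adgre1, which encodes the macrophage surface protein F4/80, had -0.97 for Chlorella against normal food and -0.16 for swimming against nonswimming. Cd163, a scavenger receptor of resident macrophages, had only -0.02 and -0.32. For swimming against nonswimming 3 of 16 macrophage markers were at least 1.5-fold higher and 0 lower, where 9.34% and 4.4% of all genes were. The macrophage median was 0.04 there, and -0.11 with median centring. Only Cd84 of the macrophage markers was not well above background on an array, that of Chlorella.

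Adipocyte markers had the same signs as C3 and Cfd. With swimming against nonswimming 7 of 8 were at least 1.5-fold higher (median 1.10), where 9.34% of all genes were. With Chlorella against normal food 6 of 8 were 1.5-fold lower (median -0.98), where 9.17% of all genes were. Their summed relative signal was 445.7 on the Chlorella swimming array, against 606.8 for swimming and 360.8 for nonswimming. Most of it came from Fabp4, at 281.7, 363.9 and 207.6 on these arrays. All 8 markers were well above background on every array. Hepatocyte markers were detected, with albumin (Alb) at 4.99 on the Chlorella swimming array, against 6.52 for swimming and 8.57 for nonswimming. Of these markers, 9 of 12 were at least 1.5-fold lower for Chlorella swimming against nonswimming (median -0.67), where 5.76% of all genes were. For swimming against nonswimming 4 of 12 were lower by that size and 1 higher (median -0.51), where 4.4% and 9.34% of all genes were. For Chlorella against normal food in swimming 1 of 12 was lower and 2 higher (median -0.09), where 9.17% and 5.87% of all genes were. Their summed relative signal was 19.2 on the Chlorella swimming array, against 22.0 for swimming and 31.5 for nonswimming, and Ttr, transthyretin, was not well above background on either swimming array. Fibroblast markers, of cells that make C1s and C3, had medians of 0.02 for Chlorella against normal food and -0.33 for swimming against nonswimming, with summed relative signals of 788.8 on the Chlorella swimming array, against 752.8 for swimming and 894.8 for nonswimming.

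Neutrophil markers differed far more than any member. All 11 were at least 2-fold higher for swimming against nonswimming (median 3.71), where 5.14% of all genes were. All 8 measured on both swimming arrays were at least 2-fold lower with Chlorella, where 4.86% of all genes were (median -6.76). That median was -5.08 with normexp background correction, and 2 markers stayed measured under the stricter filter. The summed relative signal of the neutrophil markers was 3.54 on the Chlorella swimming array, against 276.7 for swimming and 16.5 for nonswimming. Most of it came from S100a9, at 2.83, 207.1 and 12.2 on these arrays. Erythroid markers were highest on the swimming array as well, with summed relative signals of 130.4 on the Chlorella swimming array, against 439.9 for swimming and 127.5 for nonswimming. Most of these sums came from the globins Hba-a1 and Hbb-bt, at 147.1 and 279.5 on the swimming array. For Chlorella swimming against nonswimming the erythroid median was -0.47, with ratios from -1.41 for Slc4a1 to 0.28 for Hbb-bt. B cell markers summed to 0.268, 3.75 and 0.342 on the Chlorella swimming, swimming and nonswimming arrays. The part of these cells in the ratios of the members was not tested. The file headers place the 3 arrays on the same slide, scanned once, so each group had its own position on it, and position and group cannot be told apart.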

How the data were processed

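Muscle RNA pooled from 10 mice per group was hybridised to 1 single-colour array per group, per the labels. The deposited scanner files hold intensity values, which the submitters' processing notes credit to Agilent Feature Extraction 9.5: processed signals, background-subtracted and detrended within the array. The authors' value table holds log2 values for 13683 spots, centred on an unstated value. Its differences between arrays followed the scanner's log2 differences, up to a constant and within 0.01, for 55.8% to 56.6% of spots, or 70.6% to 71.3% once the scanner values were averaged over a gene's probes, and its columns had medians of 0.01, -0.01 and 0.01 on the Chlorella swimming, swimming and nonswimming arrays. Scale and direction are therefore those of log2 signal, while the centring stays unknown.

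Left out were control spots and 194 spots that carried an outlier flag. Spots of a probe were averaged, and values were scaled to the array's 75th percentile. A gene stood for its brightest probe, and measured means well above background on both arrays. Genes outside the members were named through a RefSeq table of GRCm38.p6, through the accession for 22935 probes, the symbol for 6658 and a former symbol for 3109. Genes were counted by size (2-fold or 1.5-fold) without a test. For C3ar1, not well above background on 1 array, the ratios with that array use the dim signal itself. The settings tried instead were median centring, quantile normalization, cyclic loess, a percentile over detected probes, normexp (offset 50), other filters (none, or at least 50 intensity units), probe means and the authors' values, in limma 3.58.1 (R 4.3.3) and Python 3.11.15. The ratio steps were tested on simulated data. All 9 members were described with every probe, and the closest genes were the 5 at the smallest distance. Members and lists were chosen with earlier results of these data known. One gene of the further complement list is not reported here.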

Additional observations from a re-analysis of the deposited data

How the results depend on the processing

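No paired analysis was possible because each group has 1 array. Over 9 alternatives, no member ratio past 1.5-fold changed sign. For Chlorella against normal food in swimming, members at least 2-fold lower numbered 1, C4b, with cyclic loess and with the percentile over detected probes, in place of 0, and members at least 1.5-fold lower numbered 2 with median centring and 7 with cyclic loess, in place of 5. Median centring moved all genes alike, so the members' median stayed at -0.73 from that of all genes. For Chlorella swimming against nonswimming, members 2-fold lower numbered 2 with the mean over probes and with the authors' values, in place of 1, C1s joining C4b. C1s had -1.13 as the mean of its probes and -1.15 in the authors' table, against -0.94 for the brighter probe. For swimming against nonswimming the count of 1.5-fold members was 1 with median centring as well, but it was then C1s at -0.59, with C3 at 0.58. The median ratio of the members ran from -0.43 to -0.21 for swimming against nonswimming, from -0.74 to -0.52 for Chlorella against normal food and from -0.83 to -0.76 for Chlorella swimming against nonswimming over the alternatives. C3ar1 has no value in the authors' table and under the stricter filter. Dim probes limit C3ar1 and the second C3 probe.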
